A study of Mus musculus with 12 samples.

Results

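The genes described here encode the signalling part of the T cell receptor and the molecules that work beside it. They are the CD3 chains (Cd3d, Cd3e, Cd3g and Cd247), the coreceptors (Cd4, Cd8a and Cd8b1), the coreceptor-bound kinase Lck, the adhesion molecule Cd2 and the signalling adaptor Themis. They were chosen by symbol, and all 10 had a row in the count table of 25124 genes. All 10 also passed the expression filter and were among the 17612 genes tested.

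Mouse brains were studied by RNA sequencing 28 days after an experimental ischemic stroke, made by blocking the middle cerebral artery (MCAo). Wild-type mice (C57BL6/J) were compared with DKK1 mice, labelled Gt(ROSA)26Sortm1.1(rtTA,EGFP)Nagy, Hprttm1(tetO-Dkk1)Spdl and Tg(TCF/Lef1-lacZ)34Efu/J. These alleles are a doxycycline-dependent activator with EGFP at the ROSA26 locus, a tetO-Dkk1 transgene at Hprt and a TCF/Lef1-lacZ reporter. DKK1 is a secreted antagonist of Wnt signalling. Mice of both genotypes were given doxycycline at 200 mg/kg, and Dkk1 was induced from day 3 after MCAo. Each genotype gave 3 libraries of lesioned hemisphere (ipsilateral to the stroke) and 3 of intact hemisphere (contralateral), or 4 groups in all. No group carried the transgenes without doxycycline, so induced Dkk1 and the other alleles cannot be told apart as sources of a genotype difference. ROSA26 is active in most cell types, and the labels name no cell type that produces Dkk1. They also leave out which animal each library is from. The p-values therefore reflect only library-to-library spread, which may be technical.

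A T cell recognises peptide on MHC molecules through an antigen-binding pair of receptor chains that cannot signal by themselves. The CD3 chains carry the signal inward: Lck, brought to the receptor by CD4 or CD8, phosphorylates them, and the kinase ZAP70 then binds. CD4 binds MHC class II and marks helper and regulatory T cells, while CD8 binds MHC class I and marks cytotoxic T cells. Few T cells are found in healthy brain tissue, and they are known to enter and persist in ischemic lesions. The constant genes of the antigen-binding chains (Trac, Trbc1 and Trbc2) had no row under these symbols in the count table.

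Dkk1 had 0 counts in all 6 wild-type libraries, 4 to 13 in the DKK1 intact and 7 to 44 in the DKK1 lesioned libraries. Hprt, which carries the transgene, was at 69.8 ± 2.16 counts-per-million (CPM) in wild-type lesioned and 12.8 ± 0.773 CPM in DKK1 lesioned libraries (SD, n = 3). Both genes followed the labels. Totals ran from 21209920 to 26911840 counts per library. The first principal component held 73.8% of the variance, and on it the first wild-type lesioned library (70.9) lay within the DKK1 lesioned libraries (62.8 to 83.8), apart from the other wild-type lesioned libraries (29.2 and 37.1). The first wild-type intact library, at −41.2, also stood apart from the other intact libraries, which lay between −72.6 and −56.8. Results that rest on these 2 libraries are given with and without them.

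The genes of 3 CD3 chains lie in 1 cluster on chromosome 9, and Cd8b1 and Cd8a are neighbours on chromosome 6. In mm10, Cd3g (44969572 to 44980431, minus strand) and Cd3d (44981786 to 44987052, plus strand) start 1355 bases apart and point away from each other. Cd3e lies at 44998743 to 45009611 on the minus strand, 11691 bases beyond Cd3d. The 250 bases before the start of Cd3g, Cd3d, Cd3e and Cd8a are shown. These are 4 of the genes that rose in the lesion. Lck and Themis, which also rose, have windows that are not shown. Capitals mark the core letters bound by ETS factors (GGAAG, or CTTCC on the other strand), a family that includes lymphocyte regulators. The sequences are from RefSeq (GRCm38.p6), each 5′ to 3′ on the strand of its gene.
Cd3g, chr9:44980432-44980681, minus strand: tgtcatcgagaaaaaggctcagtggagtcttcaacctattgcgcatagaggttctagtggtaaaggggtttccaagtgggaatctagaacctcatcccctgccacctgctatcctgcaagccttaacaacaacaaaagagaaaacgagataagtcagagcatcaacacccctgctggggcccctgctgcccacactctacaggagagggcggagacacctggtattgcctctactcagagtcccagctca
Cd3d, chr9:44981536-44981785, plus strand: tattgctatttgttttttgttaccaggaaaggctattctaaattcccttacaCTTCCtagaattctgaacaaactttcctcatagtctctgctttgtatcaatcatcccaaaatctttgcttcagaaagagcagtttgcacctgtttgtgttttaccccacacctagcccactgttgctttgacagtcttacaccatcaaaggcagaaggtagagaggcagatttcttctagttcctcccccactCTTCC
Cd3e, chr9:45009612-45009861, minus strand: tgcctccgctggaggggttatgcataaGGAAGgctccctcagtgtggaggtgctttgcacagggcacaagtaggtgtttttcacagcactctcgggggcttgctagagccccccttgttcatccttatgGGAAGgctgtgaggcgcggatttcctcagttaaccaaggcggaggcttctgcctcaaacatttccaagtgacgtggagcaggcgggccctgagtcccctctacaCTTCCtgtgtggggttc
Cd8a, chr6:71373177-71373426, plus strand: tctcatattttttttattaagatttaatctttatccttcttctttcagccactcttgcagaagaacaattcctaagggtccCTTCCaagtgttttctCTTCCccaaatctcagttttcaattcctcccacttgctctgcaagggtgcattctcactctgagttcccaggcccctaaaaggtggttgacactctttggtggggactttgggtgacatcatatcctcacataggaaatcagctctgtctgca

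Both strands were searched. The Cd3d and Cd8a windows each hold 2 of these ETS cores, and the Cd3e window holds 3. A single Cd8a match overlaps an E-box (CANNTG). The Cd3g window holds no ETS core but has 1 GATA core (AGATAA) and 3 E-boxes. Of 32851 mouse promoter windows of the same length, 64.1% held the ETS core, 66.2% an E-box, 9.99% the GATA core and 14.0% the RUNX core (TGTGGT), so an ETS core or an E-box in a window is common. The RUNX core was absent from these 4 windows and present once before the upstream start of Lck. Of the windows not shown, those of Lck hold 3 and 1 ETS cores, that of Cd247 holds 1 and those of Themis hold 0. These matches are descriptions of the letters. Promoter windows were found in the RefSeq table for 7 of the 10 genes.

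In wild-type mice, 8 of the 10 genes rose in the lesioned hemisphere and 1, Cd4, fell. In DKK1 mice the same count was found, 8 higher and 1 lower. The 8 that rose in each genotype were Cd3d, Cd3e, Cd3g, Cd8a, Cd8b1, Cd2, Lck and Themis, and Cd4 fell in both. Across all genes tested, 21.2% were called higher and 15.9% lower in the wild-type lesion, and 27.5% higher and 22.6% lower in the DKK1 lesion. The median log2 fold change of the 10 genes was 3.36 in wild-type and 4.98 in DKK1 mice, against medians of 0.0064 and 0.012 over all genes tested. Without both wild-type libraries numbered 1, 8 of the 10 genes were called in the wild-type lesion, all of those above but Themis. A call is an adjusted p under 0.05 by edgeR's quasi-likelihood test with Benjamini-Hochberg adjustment over all genes tested. In bulk tissue, fewer cells of a type and less RNA per cell cannot be told apart.

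**Figure D1:**
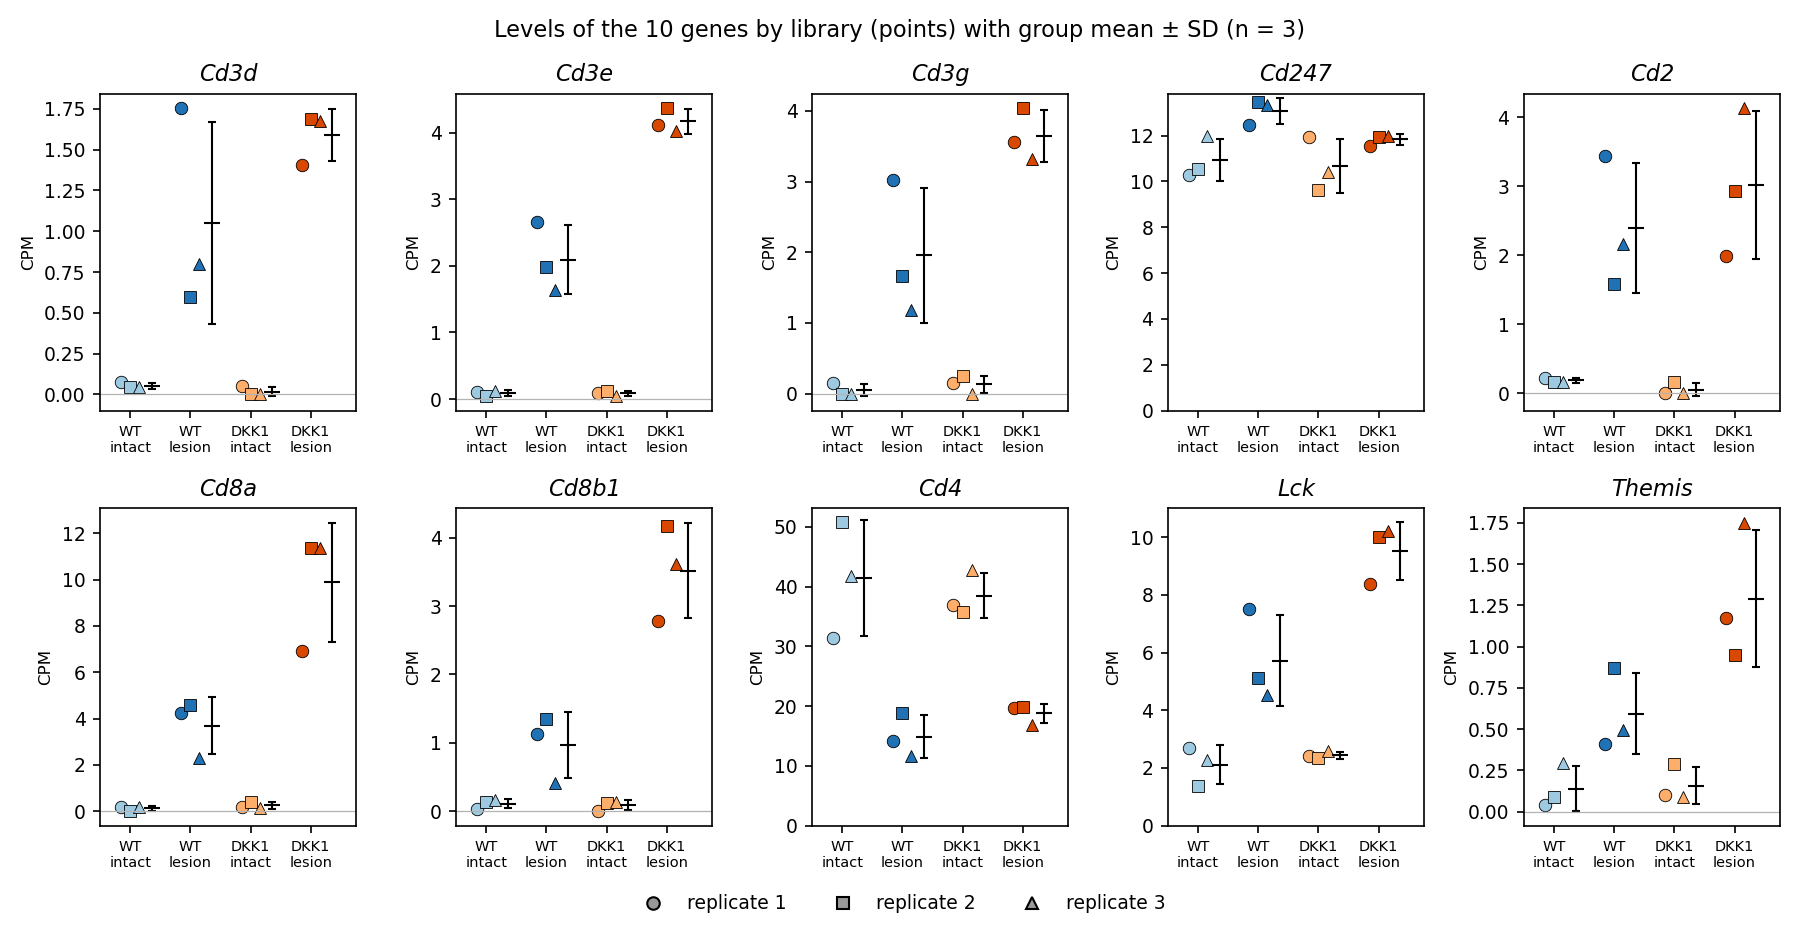
Level of each of the 10 genes in counts-per-million (CPM, y axis, linear) in the 4 groups (x axis; WT is wild type), with 1 point per library, its shape giving the replicate number, and a bar for the mean ± SD (n = 3). Cd4 runs the other way from Cd3e: Cd4 averaged 41.4 CPM in wild-type intact and 14.9 CPM in wild-type lesioned tissue, Cd3e 0.0940 and 2.09 CPM.

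The CD3 chains CD3 delta, epsilon and gamma pair with each other in the receptor, and their genes were close to absent from intact tissue. Cd3e, the chain most used to mark T cells, had 3, 1 and 3 counts in the wild-type intact libraries (replicates 1 to 3) and 71, 50 and 43 in the lesioned ones. In DKK1 mice it had 2, 3 and 1 counts in intact and 105, 106 and 108 in lesioned tissue. Every lesioned library lay above every intact library. The rise was 21.0-fold in wild-type mice (log2 4.39 ± 0.36 SE, edgeR adjusted p = 2.06e-05) and 44.6-fold in DKK1 mice (log2 5.48 ± 0.36, edgeR adjusted p = 1.57e-06).

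Cd3g had 4, 0 and 0 counts in wild-type intact and 81, 42 and 31 in wild-type lesioned libraries. In DKK1 mice the counts were 3, 6 and 0 against 91, 98 and 89. The DKK1 lesioned libraries were close to each other, and the first wild-type library, at 81, came nearest to them. Cd3g rose by a log2 fold change of 5.06 ± 0.79 in wild-type (edgeR adjusted p = 0.000666) and 4.73 ± 0.68 in DKK1 mice (edgeR adjusted p = 0.000171), with 4 and 9 counts in all behind the intact levels. All 4 wild-type intact counts were in wild-type intact 1. Without that library the rise was at least 30.9-fold, against 3 counts over the remaining intact libraries and leaving out the counting error of the lesioned counts. In DKK1 mice the log2 fold change was 5.58 without DKK1 intact 2 and 4.12 without DKK1 intact 3, and it was called in each case.

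Cd3d, which starts next to Cd3g, was the scarcest of the 3 in the lesion. It had 2, 1 and 1 counts in wild-type intact and 47, 15 and 21 in wild-type lesioned libraries, a rise of 17.9-fold (log2 4.16 ± 0.61, edgeR adjusted p = 0.000425). In DKK1 mice the intact libraries held 1, 0 and 0 counts and the lesioned ones 36, 41 and 45. The DKK1 rise was called (edgeR adjusted p = 3.31e-05), and with 1 count in intact tissue the ratio of summed counts was 108 with an exact 95% interval from 19.0 to 4295, which covers counting error only. Without the library holding that count, DKK1 intact 1, the rise was at least 25.1-fold against 3 counts over the other 2. The counting error of the lesioned counts is left out of that value. In wild-type mice the log2 fold change was 3.57 without wild-type lesioned 1. The first wild-type library stood above the other 2 by more than their whole level, and above every DKK1 library in counts.

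Cd247 encodes CD3 zeta, the chain with the most activation motifs, and its level did not follow its partners. Its counts were 274, 247 and 284 in wild-type intact and 333, 340 and 350 in wild-type lesioned tissue, then 244, 235 and 239 in DKK1 intact and 295, 290 and 322 in DKK1 lesioned tissue. Its log2 fold change was 0.26 ± 0.10 in the wild-type lesion (edgeR adjusted p = 0.0665) and 0.15 ± 0.10 in the DKK1 lesion (edgeR adjusted p = 0.244). The wild-type groups did not overlap on the CPM scale, and the DKK1 groups did.

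The counted Cd247 transcript (chromosome 1, 165788681 to 165871153, plus strand, mm10) overlaps another gene. Of its 2957 exonic bases, 2380 are also exonic in Pou2f1, a broadly expressed transcription factor gene at 165865154 to 166002678 that the GENCODE annotation puts on the other strand. The library kit was directional. Whether strand was used in counting is not given in the sources used here, so reads of the 2 genes may not be separated. Pou2f1 stood at 49.9 ± 2.87 and 58.0 ± 1.30 CPM in wild-type intact and lesioned tissue, and at 48.8 ± 2.21 and 54.5 ± 1.20 CPM in DKK1 tissue (SD, n = 3). It rose by a log2 fold change of 0.22 ± 0.05 in wild-type (edgeR adjusted p = 0.00923) and 0.16 ± 0.05 in DKK1 lesions (edgeR adjusted p = 0.0291), next to 0.26 and 0.15 for Cd247. The part of Pou2f1 reads in the Cd247 level was not tested. In the deposited TPM, counted over a shorter Cd247 transcript that shares 782 of its 1317 exonic bases with Pou2f1, the changes were 0.21 and 0.21 (limma adjusted p = 0.301 and 0.274).

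Cd2, a receptor for CD48 on T and NK cells, had 6, 4 and 4 counts in wild-type intact and 92, 40 and 57 in wild-type lesioned tissue. In DKK1 mice the counts were 0, 4 and 0 against 51, 71 and 111. The lesioned libraries of the 2 genotypes overlapped. Cd2 rose 12.4-fold in wild-type (log2 3.63 ± 0.55, edgeR adjusted p = 0.000545) and 47.5-fold in DKK1 mice (log2 5.57 ± 0.67, edgeR adjusted p = 4.56e-05), the latter against 4 counts in intact tissue. These were all in DKK1 intact 2, and without it the DKK1 rise was at least 43.9-fold against 3 counts over the other 2 libraries. That value leaves out the counting error of the lesioned counts.

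Lck, the kinase that starts receptor signalling, was measurable in the intact hemisphere as well. Its counts were 72, 32 and 54 in wild-type intact, 201, 129 and 119 in wild-type lesioned, 49, 57 and 59 in DKK1 intact and 214, 243 and 274 in DKK1 lesioned tissue. The intact level was 2.12 ± 0.681 CPM in wild-type and 2.44 ± 0.122 CPM in DKK1 mice, and the ratio of lesioned to intact was 2.69-fold in wild-type (log2 1.43 ± 0.25, edgeR adjusted p = 0.00117) and 3.91-fold in DKK1 mice (log2 1.97 ± 0.24, edgeR adjusted p = 5.70e-05).

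Themis, which tunes receptor signalling during thymic selection and is kept in mature T cells, was the least abundant per kilobase of transcript in lesioned tissue of both genotypes. Its counts were 1, 2 and 7 in wild-type intact and 11, 22 and 13 in wild-type lesioned tissue, then 2, 7 and 2 against 30, 23 and 47 in DKK1 mice. The wild-type rise (log2 2.07 ± 0.63, edgeR adjusted p = 0.0231) was lost without wild-type intact 1 (adjusted p = 0.075), wild-type intact 2 (0.082) or wild-type lesioned 2 (0.074), and without both wild-type libraries numbered 1 (0.070). Without wild-type intact 3 it was larger, at log2 3.19. The DKK1 rise was 7.82-fold (log2 2.97 ± 0.58, edgeR adjusted p = 0.00129), and its log2 value was 3.71 without DKK1 intact 2.

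**Figure D2:**
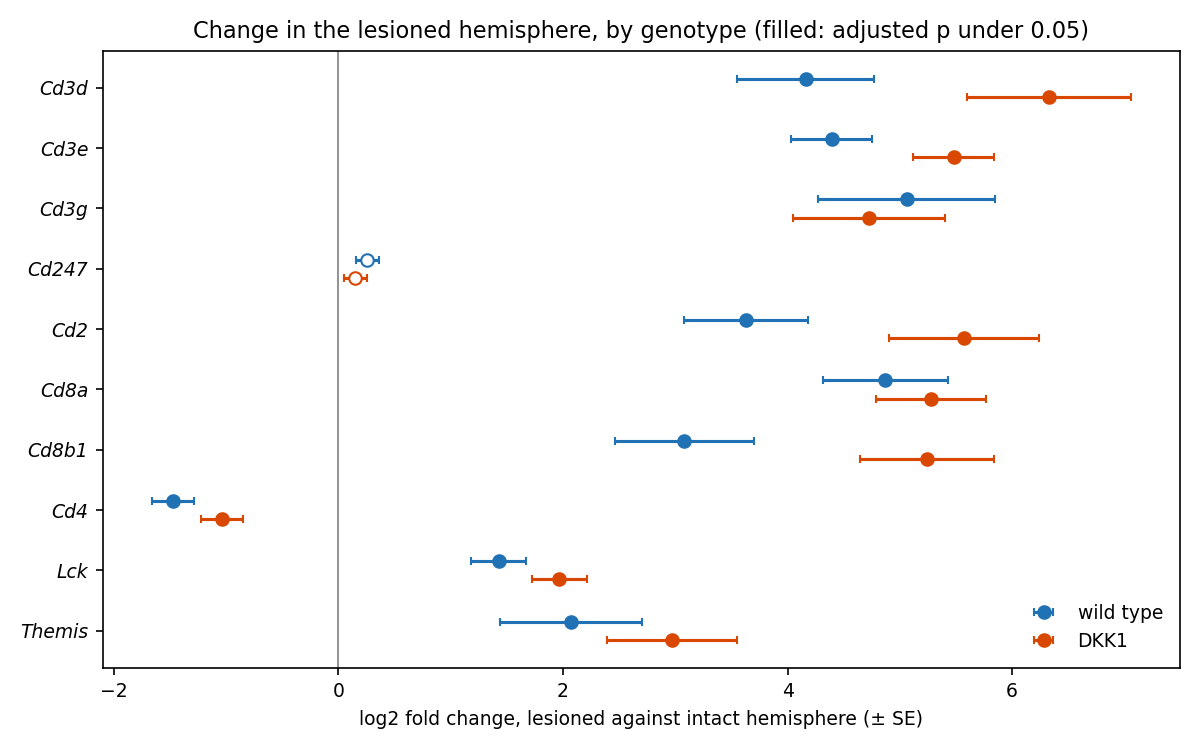
Log2 fold change of each gene in the lesioned against the intact hemisphere (x axis, ± SE), in wild-type (blue) and DKK1 mice (orange), filled where the edgeR adjusted p is under 0.05. Most genes lie between 1.43 and 6.33, Cd247 lies near 0 and is open in both genotypes, and Cd4 lies at −1.47 and −1.03.

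The coreceptors parted. The CD8 genes, whose products form the CD8 alpha-beta pair on cytotoxic T cells, rose with the CD3 genes, while Cd4 fell in lesioned tissue of both genotypes. Cd8a (chromosome 6, 71373427 to 71379171) had 5, 0 and 4 counts in wild-type intact and 113, 116 and 60 in wild-type lesioned tissue. In DKK1 mice it had 4, 10 and 3 counts in intact and 177, 276 and 305 in lesioned tissue. All lesioned libraries lay above all intact ones, and all DKK1 lesioned libraries above all wild-type lesioned ones. The lesion rise was 29.2-fold in wild-type (log2 4.87 ± 0.56, edgeR adjusted p = 9.47e-05) and 38.8-fold in DKK1 mice (log2 5.28 ± 0.49, edgeR adjusted p = 8.30e-06).

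Cd8b1, found on conventional cytotoxic T cells and mostly absent from the dendritic cells that carry CD8 alpha alone, lies 35935 bases from Cd8a. It had 1, 3 and 4 counts in wild-type intact and 30, 34 and 11 in wild-type lesioned libraries. In DKK1 mice it had 0, 3 and 3 against 71, 101 and 97. The lowest DKK1 lesioned library had more than 2 times the counts of the highest wild-type lesioned one. The lesion rise was 8.47-fold in wild-type (log2 3.08 ± 0.62, edgeR adjusted p = 0.00290) and 37.8-fold in DKK1 mice (log2 5.24 ± 0.60, edgeR adjusted p = 3.19e-05).

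Cd4 (chromosome 6, 124864693 to 124888200, minus strand) had 839, 1190 and 990 counts in wild-type intact and 379, 476 and 307 in wild-type lesioned tissue. In DKK1 mice it had 754, 872 and 980 in intact and 502, 480 and 453 in lesioned tissue. Every intact library was above every lesioned library in both genotypes. The level fell from 41.4 ± 9.71 to 14.9 ± 3.65 CPM in wild-type mice (log2 −1.47 ± 0.19, edgeR adjusted p = 0.000208) and from 38.5 ± 3.73 to 18.8 ± 1.64 CPM in DKK1 mice (log2 −1.03 ± 0.19, edgeR adjusted p = 0.000864). The intact brain thus held 754 to 1190 Cd4 counts per library where Cd3e had 1 to 3. Between the hemispheres the bulk Cd4 level therefore did not track the CD3 genes. Its difference between genotypes in the lesion change was 0.44 ± 0.26 on the log2 scale and did not pass (edgeR adjusted p = 0.637).

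The genes most like Cd4 over the 12 libraries, looked up after its values were seen, were Actn1, Rasgrp2, Ccm2, Abhd17a, Ptprv, Speg, Fam160b2 and Ppp1r1b, with Pearson r from 0.981 down to 0.966 on log2 CPM. Ppp1r1b encodes DARPP-32, a marker of striatal medium spiny neurons, and was at 388 CPM in wild-type intact and 219 CPM in wild-type lesioned tissue. Actn1, a cytoskeletal actinin, was at 188 and 136 CPM. The libraries fall into intact and lesioned ones, so r mainly reflects that split and is given without a p. Of 11 neuron, astrocyte and oligodendrocyte markers, 5 fell and 5 rose in the wild-type lesion and 5 fell and 6 rose in the DKK1 lesion. Among those that fell were Rbfox3, a neuron marker (356.5 to 246 CPM), and Snap25, a synaptic gene (904 to 675 CPM). The part of neuronal loss in the fall of Cd4 was not tested.

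Per kilobase of transcript, Cd4 was the most abundant of the 10 genes in every group. In wild-type intact tissue it was at 13.5 ± 3.16 CPM per kb, ahead of Cd247 (3.71 ± 0.312) and Lck (1.01 ± 0.324), with the other 7 genes at or below 0.166 (SD, n = 3). In DKK1 intact tissue the same 3 genes led, at 12.5 ± 1.21, 3.62 ± 0.400 and 1.16 ± 0.0579 CPM per kb, and the other 7 were at or below 0.129. In wild-type lesions the order was Cd4 (4.85 ± 1.19), Cd247 (4.44 ± 0.188), Lck (2.72 ± 0.753), Cd2 (2.11 ± 0.833), Cd3g (1.93 ± 0.945), Cd3e (1.44 ± 0.358), Cd8a (1.18 ± 0.398), Cd3d (0.794 ± 0.469), Cd8b1 (0.653 ± 0.329) and Themis (0.117 ± 0.0483). Only Cd247 from Lck and Cd8b1 from Themis were apart there in every library, and the other neighbours in that order overlapped. In DKK1 lesions the order was Cd4 (6.11 ± 0.535), Lck (4.54 ± 0.480), Cd247 (4.01 ± 0.0848), Cd3g (3.59 ± 0.364), Cd8a (3.17 ± 0.822), Cd3e (2.88 ± 0.125), Cd2 (2.66 ± 0.943), Cd8b1 (2.39 ± 0.474), Cd3d (1.20 ± 0.120) and Themis (0.254 ± 0.0815). There Cd4 was apart from Lck, Cd8b1 from Cd3d and Cd3d from Themis, and the neighbours from Lck down to Cd8b1 overlapped.

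DKK1 and wild-type mice were then compared within the lesioned hemisphere. Of the 10 genes, 1 was higher in DKK1 lesions, Cd8b1, and none was lower. Over all genes tested, 2.37% were called and 1.52% were called higher. The median log2 fold change of the 10 genes was 0.81, against 0.021 over all genes tested. Of the 10, 5 had an unadjusted edgeR p under 0.05, as did 3680 of the 17612 genes tested. The 6 genes Cd3e, Cd3g, Cd8a, Cd8b1, Lck and Themis had every DKK1 library above every wild-type one and Cd247 had every one below, while 20.6% of all genes tested had groups that did not overlap.

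Cd8b1 stood at 3.52 ± 0.698 CPM in DKK1 and 0.962 ± 0.484 CPM in wild-type lesions (SD, n = 3), a difference of 3.65-fold (log2 1.87 ± 0.42, edgeR adjusted p = 0.0449). The call was close to the threshold. It was lost without wild-type lesioned 2 (adjusted p = 0.088) or 3 (0.175), without DKK1 lesioned 2 (0.184) or 3 (0.152), with only the 2 lesioned groups in the fit (0.159), and with limma on the deposited TPM (0.071). Its log2 fold change stayed between 1.51 and 2.18 when each lesioned library was left out in turn.

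Next in size was its partner Cd8a, at 9.89 ± 2.57 CPM in DKK1 and 3.70 ± 1.24 CPM in wild-type lesions (log2 1.42 ± 0.36, edgeR adjusted p = 0.0621). Cd3e was at 4.17 ± 0.181 and 2.09 ± 0.517 CPM (log2 0.99 ± 0.24, edgeR adjusted p = 0.0529). Lck was at 9.54 ± 1.01 and 5.72 ± 1.58 CPM (log2 0.74 ± 0.23, edgeR adjusted p = 0.106). These 3 did not pass the threshold by edgeR. They passed by limma-voom (adjusted p = 0.0323, 0.0211 and 0.0487) and by DESeq2 (0.00443, 0.0171 and 0.0441), which called 7.14% of the genes to which it gave an adjusted p. The remaining genes were further from it: log2 1.13 ± 0.47 for Themis, 0.89 ± 0.48 for Cd3g, 0.59 ± 0.38 for Cd3d, 0.33 ± 0.41 for Cd2, 0.33 ± 0.19 for Cd4 and −0.14 ± 0.10 for Cd247, with edgeR adjusted p from 0.202 to 0.685.

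How many of these genes passed depended on the library left out and on the tool. Without wild-type lesioned 1, the library that lay among the DKK1 lesioned ones, 5 genes were called higher: Cd3d (adjusted p = 0.0477), Cd3e (0.0113), Cd8a (0.0316), Cd8b1 (0.0237) and Lck (0.0153). Without both wild-type libraries numbered 1 there were 6, with Cd3g added (0.0350). The background moved as well, from 2.37% of the genes tested to 14.3% and 18.3%. Without DKK1 lesioned 1, 2 passed (Cd8a and Cd8b1), and none did without wild-type lesioned 2 or 3 or DKK1 lesioned 2 or 3. None passed with only the 2 lesioned groups in the fit. Limma-voom called 4 genes (Cd3e, Cd8a, Cd8b1 and Lck), against 3.75% of all genes, and called these 4 also with hemispheres of the same number as a random block. In wild-type lesioned 1 the counts of Cd3d, Cd3e, Cd3g, Cd2 and Lck were the highest of the 3 wild-type lesions, while Cd8a, Cd8b1, Cd4 and Themis were highest in wild-type lesioned 2.

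**Figure D3:**
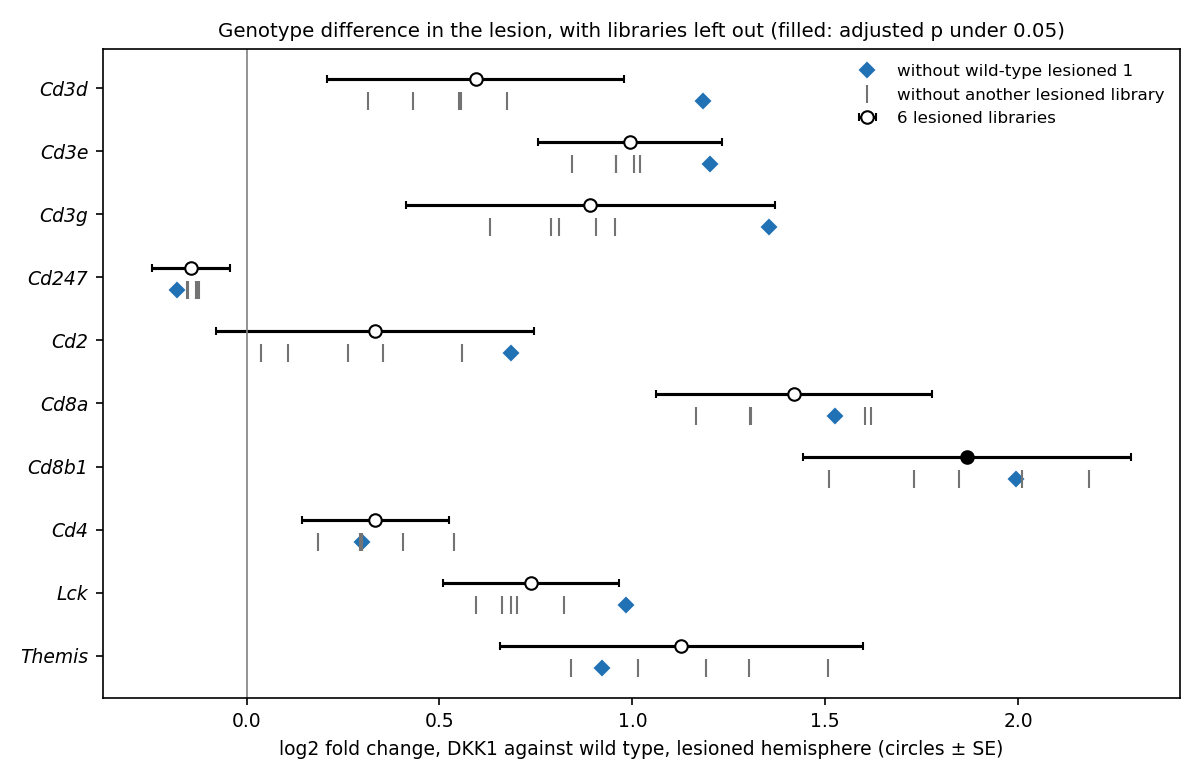
Log2 fold change of each gene in DKK1 against wild-type lesioned tissue (x axis): circles ± SE for all 6 lesioned libraries (filled where the edgeR adjusted p is under 0.05), blue diamonds without wild-type lesioned 1, and grey ticks without each of the other lesioned libraries. Cd8b1 lies at 1.87 and is the filled circle, and Cd3d moves from 0.59 to 1.18 without wild-type lesioned 1.

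The ratio of CD8 to CD4 transcripts was set within each library, per kilobase and with 0.5 counts added. Cd8a stood at 0.294, 0.241 and 0.194 times Cd4 in the wild-type lesions and at 0.348, 0.566 and 0.663 times Cd4 in the DKK1 lesions. Every DKK1 lesion was above every wild-type lesion, by 1.08 on the log2 scale. Cd8b1 stood at 0.168, 0.151 and 0.0780 times Cd4 in wild-type and 0.297, 0.441 and 0.449 times Cd4 in DKK1 lesions, a log2 difference of 1.63. For both ratios the exact two-sided permutation test gave p = 0.1, the smallest that 3 against 3 libraries allow (0.1 also after adjustment over the 2 ratios), so neither could pass. In the intact hemispheres the Cd8a ratio was between 0.000413 and 0.0118. Since Cd4 was also counted where CD3 genes were nearly absent, this ratio is not a ratio of cytotoxic to helper T cells.

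Set against Cd3e, the CD8 genes of the 2 genotypes overlapped. The log2 ratio of Cd8a to Cd3e per kb averaged 0.10 ± 0.40 in DKK1 and −0.33 ± 0.38 in wild-type lesions, with overlapping libraries. That of Cd8b1 to Cd3e averaged −0.29 ± 0.26 and −1.26 ± 0.68. It overlapped only narrowly, between DKK1 lesioned 1 (−0.587) and wild-type lesioned 2 (−0.575). Cd8b1 to Cd8a was higher in every DKK1 lesion, at −0.38 ± 0.17 against −0.93 ± 0.34. The ratios to Cd3e and Cd8a were added after the levels were seen and carry no test. Cd3g to Cd3e averaged 0.31 ± 0.083 and 0.34 ± 0.33, and Cd3d to Cd3e −1.25 ± 0.14 and −0.97 ± 0.56, in DKK1 and wild-type lesions.

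**Figure D4:**
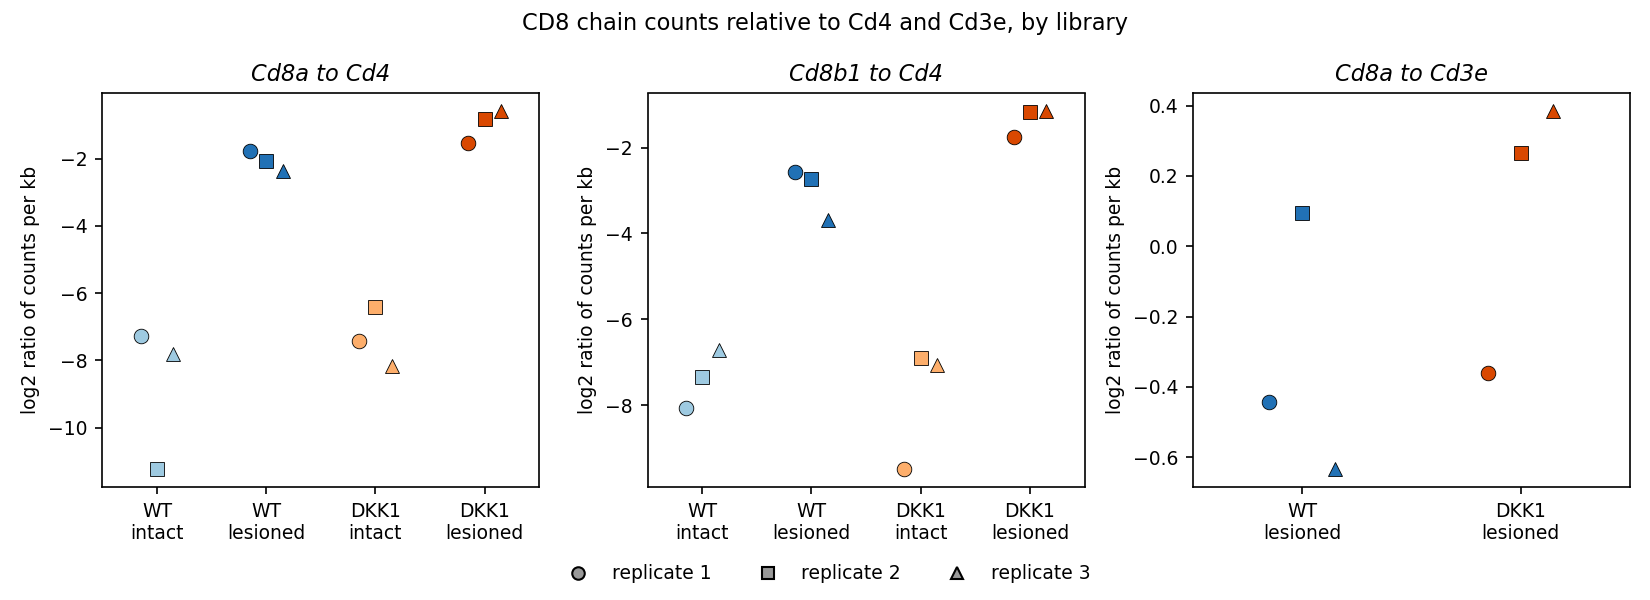
Log2 ratio of counts per kb (y axis) of Cd8a to Cd4, Cd8b1 to Cd4 and Cd8a to Cd3e, with 1 point per library, its shape giving the replicate number. In the lesions the Cd8a to Cd4 ratio averaged −0.98 in DKK1 and −2.06 in wild-type mice without overlap, whereas Cd8a to Cd3e overlapped.

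In the intact hemispheres the genotypes were not told apart by these genes. None of the 10 was called by edgeR, limma-voom or DESeq2, and 0.88% of all genes tested were called. None of the 10 had an unadjusted p under 0.05 by edgeR, against 1071 of the 17612 genes tested. The log2 fold changes ran from −1.61 (Cd2, 4 against 14 counts in all) to 1.22 (Cd3g, 9 against 4 counts in all), with edgeR adjusted p of 0.979 and 1. Both ends rested on single libraries. All 4 wild-type counts of Cd3g were in wild-type intact 1. Without it, the ratio of DKK1 to wild-type tissue was 2.08 with 3 counts set as a floor over the other 2 wild-type libraries. That ratio leaves out the counting error of the 9 DKK1 counts, of which DKK1 intact 3 held none. Without DKK1 intact 2 the log2 fold change of Cd3g was 0.35. All 4 DKK1 counts of Cd2 were in DKK1 intact 2. Without it, the ratio of wild-type to DKK1 tissue was 2.74 by the same floor, again without the counting error of the 14 wild-type counts. No call was made in any of these. Most of these genes had too few counts in intact tissue for a moderate difference to be detectable. Cd4, with ample counts, differed by −0.10 ± 0.18 (edgeR adjusted p = 1).

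The change from intact to lesioned tissue was not shown to differ between genotypes for any of the 10 genes. No interaction of the 10 passed by edgeR, limma-voom or DESeq2, and 0.00568% of all genes tested (1 gene) was called. An unadjusted p under 0.05 by edgeR was found for none of the 10, against 1689 of the 17612 genes tested. The interaction of Cd8b1 was 2.16 ± 1.04 on the log2 scale (edgeR adjusted p = 0.542), that of Cd3d 2.17 ± 1.33 and that of Cd3g −0.33 ± 1.11. The Cd3d value rested on 1 count in DKK1 intact tissue. Without DKK1 intact 1, which held it, the fitted value was 4.15 but depends on the prior count, and without DKK1 intact 2 it was 1.64. The Cd3g value ran from −3.87 without wild-type intact 1, which leaves no count in that group, to 0.52 without DKK1 intact 2. With hemispheres of the same number as a block, 288 genes passed the interaction in all and still none of the 10.

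Other genes of T cells moved with the CD3 genes in the lesion. Of 25 tested genes of receptor signalling and the T cell surface, 19 rose in wild-type lesions, 19 rose in DKK1 lesions and none fell (median log2 2.14 and 2.78). Vav1, an exchange factor downstream of the receptor that myeloid cells also use, rose from 4.12 to 32.5 CPM in wild-type mice. Ccr7, a homing receptor of naive and central memory T cells, rose from 0.132 to 3.66 CPM, and Cd5, a T cell surface receptor, from 0.133 to 1.71 CPM. Between genotypes in the lesion, 1 of the 25 was called: Grap2, an adaptor that links LAT to SLP-76, was at 10.7 ± 0.529 CPM in DKK1 and 4.31 ± 1.22 CPM in wild-type lesions (log2 1.30 ± 0.24, edgeR adjusted p = 0.0193). Limma-voom and DESeq2 each called 3 of the 25, and the median log2 difference was 0.79. An unadjusted edgeR p under 0.05 was found for 13 of the 25, against 3680 of the 17612 genes tested. The same 3680 genes are the background for such counts in the lists below.

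Genes of CD4 helper and regulatory T cells rose although Cd4 itself fell. Of 12 tested, 9 rose in wild-type and 10 in DKK1 lesions, with medians of log2 1.41 and 1.48. They included Cxcr3, a chemokine receptor also used by CD8 T cells (0.0552 to 1.70 CPM in wild-type mice), Tbx21, the T-bet factor shared by helper, cytotoxic and NK cells (0.20 to 1.01 CPM), and the costimulatory and checkpoint receptors Icos (0.199 to 0.939 CPM) and Ctla4 (0.110 to 0.845 CPM). None of the 12 was called between genotypes in the lesion by edgeR or limma-voom, 1 was by DESeq2, and 3 had an unadjusted edgeR p under 0.05. Il17a had no count in any library, and 6 other listed genes, among them Ifng and Cd40lg, were too low to test. The summed level of the list was 60.8 to 83.7 CPM already in intact tissue, since Zbtb7b and Foxp3 had 14762 and 4771 counts over the 12 libraries (named after their values were seen).

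Of 16 listed genes of CD8 and cytotoxic cells, 14 were tested. Of these, 13 rose in wild-type and 14 in DKK1 lesions (median log2 3.99 and 5.21). Genes near 0 in intact tissue, such as Runx3 and Eomes, passed the expression filter only through lesioned libraries. A rise among such genes was therefore partly set by the filter, here and in the other lists. Runx3, the factor that sets the CD8 lineage, rose from 0.105 to 3.90 CPM in wild-type mice, and Eomes, a memory and effector factor, from 0.0690 to 1.80 CPM. Ccl5, a chemokine of effector T cells, rose from 0.258 to 6.89 CPM. Cst7, which activated microglia also express, rose from 1.52 to 40.6 CPM. None of the 14 was called between genotypes in the lesion by edgeR, limma-voom or DESeq2, and 2 had an unadjusted edgeR p under 0.05. Runx3 differed by log2 0.71 ± 0.34 (edgeR adjusted p = 0.263), Ccl5 by 0.92 ± 0.39 (0.206), Eomes by −0.29 ± 0.32 (0.647) and Cst7 by −0.02 ± 0.45 (0.984). The median log2 difference of the 14 was 0.70, against 0.021 over all genes tested. Their summed level, of which Cst7 made up 40.6 CPM in wild-type and 40.0 CPM in DKK1 lesions on average, overlapped between genotypes.

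Of 9 tested genes linked to resident T cells, 7 rose in each genotype. Cxcr6, a chemokine receptor of resident memory cells, was called between genotypes, at 3.98 ± 0.526 CPM in DKK1 and 1.43 ± 0.582 CPM in wild-type lesions (log2 1.47 ± 0.31, edgeR adjusted p = 0.0353). Limma-voom called 1 of the 9 and DESeq2 2. The median log2 difference of the 9 was 0.16, and 3 of them had an unadjusted edgeR p under 0.05. The list summed to 116 to 159 CPM already in wild-type intact tissue. Rgs1 was also higher, at 9.02 ± 3.57 CPM in DKK1 and 4.16 ± 1.63 CPM in wild-type lesions, without a call (log2 1.11 ± 0.41, edgeR adjusted p = 0.157). Lag3 went the other way, at 53.6 ± 18.0 CPM in DKK1 and 63.0 ± 14.9 CPM in wild-type lesions (edgeR adjusted p = 0.608). Pdcd1, the PD-1 receptor, was at 4.57 ± 0.181 and 3.82 ± 2.64 CPM (edgeR adjusted p = 0.813).

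Other leukocytes that can carry some of these transcripts also had higher markers in the lesion. NK cells express Cd2, Cd247 and Lck, and of 5 tested NK genes 3 rose in each genotype. One riser, S1pr5, was at 25.7 CPM already in wild-type intact tissue and changed by only log2 0.46 and 0.38 in wild-type and DKK1 lesions. Cd160 went the other way without a call (log2 −0.58 ± 0.24 and −0.22 ± 0.24). Klrb1c, the NK1.1 antigen, was at 0.959 ± 0.820 and 1.36 ± 0.439 CPM in wild-type and DKK1 lesions. The defining receptor Ncr1 had 67 counts over the 12 libraries, with 5 libraries at 0, and was not tested. The 3 tested genes listed for gamma-delta T cells were Blk (B lymphoid kinase), Cd163l1 and Sox13. Of these, 1 rose in wild-type and 3 in DKK1 lesions. Sox13 was at 16.9 and 14.0 CPM already in wild-type and DKK1 intact tissue. Between genotypes edgeR called none (2 with an unadjusted p under 0.05), limma-voom 1 and DESeq2 2. The median log2 difference of 1.45 was that of Blk, at 8.06 ± 2.63 CPM in DKK1 and 2.94 ± 1.11 CPM in wild-type lesions. The listed receptor constant genes of the gamma-delta lineage had no row in the count table, so these counts do not identify gamma-delta T cells.

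Dendritic cells can carry Cd8a or Cd4. Of their 12 genes, 7 rose and 1 fell in the wild-type lesion, and 8 rose and 1 fell in the DKK1 lesion. Clec9a, a marker of the cross-presenting subset, was at 2.25 ± 1.13 CPM in wild-type and 2.03 ± 0.560 CPM in DKK1 lesions (edgeR adjusted p = 0.837 for the difference). Clec10a, a lectin of dendritic cells and macrophages, was at 2.80 ± 0.956 and 4.32 ± 1.21 CPM (edgeR adjusted p = 0.258; named after its values were seen). The median log2 difference of the 12 between genotypes was 0.19, and none was called by edgeR (3 with an unadjusted p under 0.05), limma-voom or DESeq2. The 8 tested B cell genes rose in both genotypes, and 3 of them were called higher in DKK1 lesions: Ms4a1, the CD20 antigen (log2 1.53 ± 0.27, edgeR adjusted p = 0.0167), Pax5, the B lineage factor (1.50 ± 0.32, 0.0354), and the adaptor Blnk (0.68 ± 0.14, 0.0305). Limma-voom called 6 of the 8 and DESeq2 5. The median log2 difference of the 8 between genotypes was 1.15, larger than the 0.81 of the 10 genes, and 7 had an unadjusted edgeR p under 0.05.

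Across the other leukocyte lists the median log2 difference between DKK1 and wild-type lesions was 0.53 for pan-leukocyte, 0.53 for microglia and macrophage and 0.26 for neutrophil genes, with few calls. The 8 pan-leukocyte genes summed to 449 to 708 CPM in wild-type and 677 to 860 CPM in DKK1 lesions, overlapping through wild-type lesioned 1, the highest wild-type value. Among them Coro1a, an actin regulator, was called between genotypes (log2 0.29 ± 0.06, edgeR adjusted p = 0.0333), and Ptprc (CD45) was not (0.60 ± 0.23, 0.165). The 10 microglia and macrophage genes summed to 753 to 1332 CPM in wild-type and 1315 to 1475 CPM in DKK1 lesions, again with wild-type lesioned 1 highest among the wild type. Of these 10, 9 rose in wild-type and 10 in DKK1 lesions, and none was called between genotypes by edgeR, 1 by limma-voom and 1 by DESeq2 (2 with an unadjusted edgeR p under 0.05). Of 8 listed neutrophil genes, 4 were tested and all 4 rose in both genotypes. Among them, Cxcr2 and Mmp8, near 0 in intact tissue, passed the expression filter only through lesioned libraries. Of 6 erythrocyte genes 1 rose in each genotype. Genotype calls in most of the 13 lists rose without wild-type lesioned 1, where 14.3% of all genes tested were called. Then 11 of the 25 receptor signalling and surface genes, 5 of 8 B cell, 6 of 8 pan-leukocyte, 5 of 10 microglia and macrophage, 2 of 9 resident, 1 of 4 neutrophil and 1 of 5 NK genes were called. The shares of the helper (1 of 12), cytotoxic (1 of 14) and dendritic cell genes (1 of 12) were below that background, and none of the 3 gamma-delta, 6 erythrocyte and 11 brain tissue genes was called. The calls of Grap2, Cxcr6, Ms4a1, Pax5, Blnk and Coro1a were each lost without wild-type lesioned 2, wild-type lesioned 3 or DKK1 lesioned 3, and all but that of Ms4a1 without DKK1 lesioned 2. The part of these cells in the genotype values of Cd8b1, Cd8a, Cd3e and Lck was not tested.

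Over all 12 libraries the genes most like the mean log2 CPM of the 10 were C2, Ifitm1, Myof, Nrk, Arhgef6, Slc37a2, Tnfaip8 and Tuba1c (Pearson r from 0.995 to 0.991). C2 is a complement protease, and was at 20.4 CPM in wild-type and 43.0 CPM in DKK1 lesions. Myof encodes myoferlin, a membrane repair protein, and was at 53.6 and 93.1 CPM. Over the 6 lesioned libraries they were Gins2, Rtraf, Il17ra, Rras, Wtip, Trpm4, Ehd2 and Hcar1 (r from 0.996 to 0.989). Il17ra, a subunit of the IL-17 receptor, was at 42.4 CPM in wild-type and 52.7 CPM in DKK1 lesions. No gene was on both lists, and with 6 libraries many of the 17612 genes can reach a high r, so these are descriptions.

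Within the 6 lesioned libraries the genes did not all vary alike. The CD8 genes followed each other closely (r = 0.986 between Cd8a and Cd8b1), as did Cd3e and Lck (0.967) and Cd3e and Cd3g (0.955). Cd2 varied with Cd3d (0.821) more than with Cd8b1 (0.373). Cd247 ran against Cd3e (−0.945), being lower in the DKK1 lesions. Cd4, which fell where the CD3 genes rose, varied here with Cd8b1 (0.841), Cd8a (0.764), Cd3e (0.683) and Cd3g (0.637). Its r was lower with Cd3d (0.180) and negative with Cd2 (−0.155) and Cd247 (−0.514). These r values share the genotype groups and the library depths and are given with no p.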

How the data were processed

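RNA of lesioned and intact mouse brain hemispheres was sequenced in 12 libraries, 3 in each of 4 groups taken from the labels. The NEBNext Ultra II directional kit was used for the libraries, per the labels' protocols. The tools were STAR 2.7.0f, HOMER 4.11 and DESeq2 with the build mm10, per the submitters' processing notes; the settings, strand included, are not given in the sources used. The authors deposited raw counts for 1 RefSeq transcript per gene symbol, which were used for all main tests, and a table of TPM, used as an alternative. The column of wild-type lesioned 1 lacks a suffix ("flip") that the other count columns carry. Its counts stood in a constant ratio to the deposited TPM times length within 0.00702% (1st to 99th percentile, genes of at least 1000 counts), against 0.00605% to 0.00735% in the other libraries.

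Genes were filtered by edgeR 4.0.16 (minimum count 10, by group) and scaled by TMM (factors 0.963 to 1.04). CPM are counts-per-million of TMM-scaled totals. A quasi-likelihood model of 4 groups was fitted to all 12 libraries in R 4.3.3, with two-sided tests and Benjamini-Hochberg adjustment over the 17612 genes tested, and was tested on simulated data. SE is the log2 fold change over the root of the F statistic. The alternatives were other scalings, no filter, limma 3.58.1, DESeq2 1.42.0, blocks by replicate number, and leaving out libraries. Limma on TPM used log2(TPM + 0.1) and genes with at least 0.1 TPM in 3 or more libraries.

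The labels do not say whether equal numbers mark 1 animal. Deviations from group means of same-numbered hemispheres correlated at 0.297 to 0.487 within the 3 wild-type pairs. Within the 3 DKK1 pairs they correlated at 0.105 to 0.276. Same-numbered libraries of the 2 genotypes, which cannot share an animal, correlated at −0.063 to 0.257. The DKK1 pairs numbered 2 and 3 (0.125 and 0.105) lay inside that range. Pairing was therefore an assumption of the blocked alternatives. All 10 genes are named. Of 13 fixed lists, genes called between genotypes were named, plus up to 4 with the smallest p in the wild-type lesion, of which examples are printed. The members and lists were chosen with earlier results of these data known. A gene that this rule takes is not reported here.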

Additional observations from a re-analysis of the deposited data

How the results depend on the processing

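The counts of called genes among the 10 in each lesion comparison, in the intact hemisphere and in the interaction stayed within 1.5 times the reported ones under every alternative that gave a value. In the lesion comparisons that was 9, or 8 where the wild-type call of Themis was lost: with only the groups compared (adjusted p = 0.053), with the deposited TPM (0.050), or without the libraries named above. The genotype comparison in the lesion depended on the setting. The 1 gene called there became 0 with only the groups compared and with the deposited TPM, 2 with the replicate number as a block, 4 with limma-voom, 4 with the hemisphere pairs as a random block, 4 with DESeq2 (which gave Themis no adjusted p), 6 without both wild-type libraries numbered 1, and 0 to 5 when each lesioned library was left out. The 417 genes called over the whole table became 97 with only the groups compared, 273 with the deposited TPM, 655 with the random block, 661 with limma-voom, 1184 with DESeq2, 3244 without both wild-type libraries numbered 1, and 119 to 2551 when each library was left out. In the intact hemisphere the 155 genes became 285 with DESeq2 and 94 to 197 when each library was left out. For the interaction, the 1 gene became 0 with limma-voom, 8 with the deposited TPM, 69 with DESeq2, 288 with the hemisphere pairs as a replicate block, 264 without both wild-type libraries numbered 1, and 0 to 393 when each library was left out. The pairing and the block changed no other call among the 10 genes. Among the fold changes printed above, those of Cd3g in the interaction and of Cd4 between genotypes in the intact hemisphere changed sign. Cd3g gave 0.22 with the deposited TPM and −3.87 to 0.52 when each library was left out. Cd4 gave −0.27 to 0.071 when each library was left out, and neither gene passed under any of these. For fold changes that are not printed, changes of sign are not given. For both CD8 to Cd4 ratios the direction held with other counts added and without each library. Where the fit leaves 2 libraries in a group, their spread is assumed to be that of the other groups. The cause of these shifts was not tested. The alternatives with TPM and without both wild-type libraries numbered 1 were chosen after seeing the data. The low counts of the CD3 and CD8 genes in intact tissue limit the precision of their fold changes, which were smaller on the log2(TPM + 0.1) scale: for Cd3d in the DKK1 lesion 3.99 in place of 6.33.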
